A study of Mus musculus with 3 samples.

Results

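The Ms4a genes encode a family of membrane proteins, and 9 of them were followed here in mouse leukaemia cells that are sensitive or resistant to cytarabine: Ms4a1, Ms4a2, Ms4a3, Ms4a4b, Ms4a4c, Ms4a6b, Ms4a6c, Ms4a6d and Ms4a7. The family was selected on the measured falls of Ms4a3, Ms4a6c and Ms4a6d in the resistant cells, so the difference between resistant and sensitive cells is given for the members as a description, with no test. Of the 9 genes, 8 had a probe named after them, out of 17742 genes on the array; no probe carried a name of Ms4a4b, which was not analysed here. The 8 genes were read by 10 probes, with 2 probes each for Ms4a6c and Ms4a6d.

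The cells were myeloid leukaemia cells of the BXH-2 mouse strain, taken from bone marrow and grown in culture. The 2 sensitive arrays were hybridised with RNA of the parental line B117P, and the 1 resistant array with RNA of B117HS, a single line selected from B117P over about 10 weeks of rising cytarabine (Ara-C) until its IC50 was about 10 times that of the parent. Cytarabine is a nucleoside analogue used against leukaemia that blocks DNA synthesis. The labels do not state whether separate cultures lie behind the sensitive arrays, so their spread may be technical, and nothing on the resistant side measures the spread between cultures or between resistant lines. The myeloid markers Mpo and Prtn3, which encode a peroxidase and a protease of myeloid granules, read between 19231 and 84138 units on all 3 arrays.

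Ms4a proteins cross the membrane several times and take part in receptor signalling, calcium entry and membrane traffic of blood cells. Most members mark one branch of the blood: Ms4a1 is CD20 of B cells, Ms4a2 is the beta chain of the IgE receptor of mast cells and basophils, Ms4a3 marks granulocyte-monocyte progenitors, Ms4a4b is a T cell gene, and Ms4a4c, Ms4a6b, Ms4a6c, Ms4a6d and Ms4a7 are known mainly from monocytes, macrophages or other leukocytes. The genes lie side by side in a cluster on mouse chromosome 19 that arose by duplication.

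The resistant array was dimmer as a whole, with a median intensity of 24.9 units against 58.4 and 72.5 on the sensitive arrays. Over 6184 probes whose mean reached 500 units, its median log2 ratio to the sensitive mean was -0.76, while the sensitive arrays lay 0.035 to either side of their mean. Values are therefore given as deposited and, where stated, after this shift was taken out of every array. Differences are of log2(intensity + 50), a scale that understates the change of dim genes. A gene was counted as lower or higher when the resistant array differed from each sensitive array by at least 1 on that scale. The arrays measured cell populations, in which fewer cells of a type and less RNA per cell cannot be told apart.

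The members fell into a bright and a dim set. Ms4a3, Ms4a6c and Ms4a6d read at least 500 units on each sensitive array, and Ms4a7 read above 50. Ms4a1, Ms4a2, Ms4a4c and Ms4a6b stayed below 50 units on all 3 arrays. On the resistant array only Ms4a3 among the members still reached 500 units. By the size rule 4 of the 8 measured genes were lower in resistant cells and 0 were higher, where over all genes 18.5% were lower and 5.23% higher. These 4 genes are the ones that reached 50 units on any array, and they reached it on the sensitive arrays. Among the 5181 genes that reached 500 units on each sensitive array, where the 3 bright members belong, 38.8% were lower by the same rule. After scaling on bright probes, the same size rule held for 4 members against 8.75% of all genes. Since the choice of members used this contrast, nothing is read from these shares. The median log2 difference of the 8 genes was -1.16 as deposited and -1.15 after scaling, beside -0.33 and -0.06 for all genes.

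**Figure D1:**
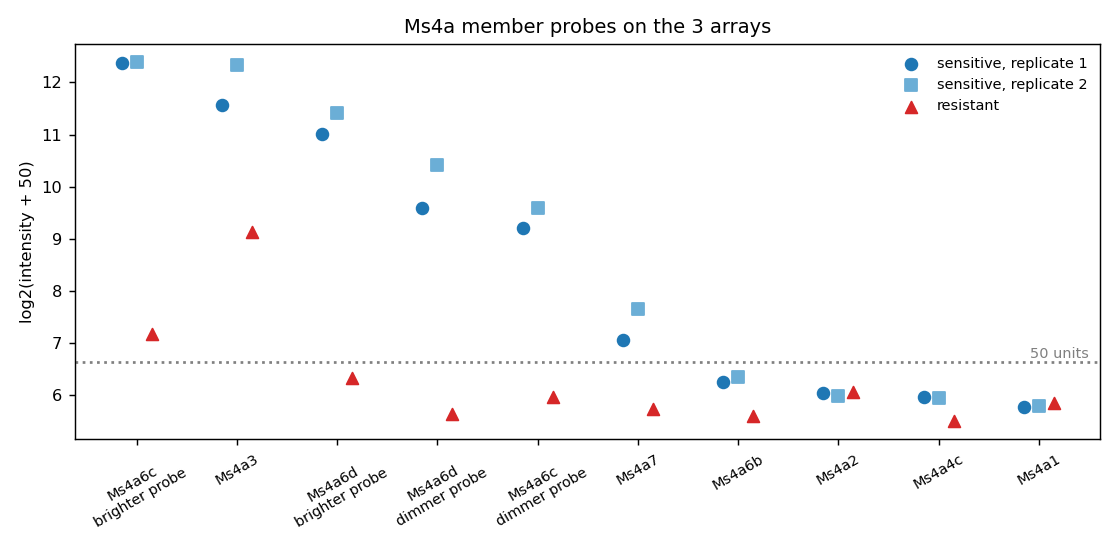
Each of the 10 Ms4a member probes (x axis, ordered by sensitive mean) is plotted as log2(intensity + 50) on both sensitive arrays and the resistant array, 1 point per array; the dotted line marks 50 units. The resistant point lies below both sensitive points for the probes of Ms4a6c, Ms4a3, Ms4a6d and Ms4a7, and the 4 probes of Ms4a6b, Ms4a2, Ms4a4c and Ms4a1 lie under the line on every array.

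Ms4a6c, a gene of monocytes and macrophages, was lower on both of its probes. The brighter one (PH_mM_0004829) read 5229 and 5325 units in sensitive and 94.9 in resistant cells. The sensitive readings nearly coincided, with a difference of 0.03 on the log2 scale, and the resistant reading lay far below both. The sensitive arrays were thus 55.1 and 56.1 times as bright for this probe. The log2 difference from the sensitive mean was -5.20 as deposited and -4.66 after scaling, which ranked 21 among the 17742 genes from the most negative as deposited. Ranked among all probes of the same array, which does not depend on an array's brightness, Ms4a6c stood at percentiles 96.9 and 96.7 on the sensitive arrays and at 62.8 on the resistant array. The dimmer Ms4a6c probe (PH_mM_0012408) read 543 and 725 units in sensitive and 12.4 in resistant cells. With 50 units taken as the lowest readable level, that probe was at least 10.9-fold lower than on either sensitive array, and its log2 difference was -3.44. The 2 probes therefore went the same way, at levels that differ as levels of different probes do.

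Ms4a6d, a macrophage gene, was also lower on both of its probes. Probe sequences were not analysed here, so whether a probe for Ms4a6b, Ms4a6c or Ms4a6d also reads a close relative was not tested. The brighter Ms4a6d probe (mMC022890) read 2021 and 2687 units in sensitive and 31.1 in resistant cells. The resistant reading was close to the median of its array, at percentile 53.0, whereas the sensitive readings stood at percentiles 90.65 and 92.7. It was at least 40.4-fold lower than on either sensitive array, with a log2 difference of -4.88 as deposited and -4.53 after scaling. The dimmer probe (mMC017690) read 721 and 1322 units in sensitive and 0 in resistant cells, at least 14.4-fold lower. Both Ms4a6d probes thus read far lower in resistant cells, and neither overlapped the sensitive range.

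Ms4a3, the progenitor gene whose protein is known to bind the Cdk2 phosphatase encoded by Cdkn3, was lower but stayed well detected. Its single probe (mMC018208) read 2984 and 5127 units in sensitive and 513 in resistant cells. The resistant reading lay below both sensitive readings, which themselves stood apart. The sensitive arrays were 5.81 and 9.99 times as bright as the resistant array for Ms4a3. Its log2 difference was -2.43 from replicate 1 and -3.20 from replicate 2, and -2.10 from the sensitive mean after scaling. Within its array Ms4a3 moved from percentiles 93.8 and 96.5 to percentile 81.25. The ratio of the resistant reading to the sensitive ones was thus nearer to 1 for Ms4a3 than for the brighter Ms4a6c probe, as deposited and after scaling.

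Ms4a7, a gene of tissue macrophages, was lower at readings close to the limit of 50 units. Its probe (PH_mM_0006957) read 83.2 and 152 units in sensitive and 3.11 in resistant cells. All readings were low and the resistant one was near 0, so only a bound can be given: at least 1.66-fold lower as deposited. That bound is no larger than the overall dimming of the resistant array, a median log2 ratio of -0.76 over bright probes. The log2 differences of Ms4a7 were -1.33 and -1.93 from the sensitive arrays, which puts it just inside the size rule. After scaling, its difference from the sensitive mean was -1.57. Just outside it stood Ms4a6b, the close relative of Ms4a6c, with 26.1 and 31.7 units on the sensitive arrays, -1.56 on the resistant array and log2 differences of -0.65 and -0.75. All 3 Ms4a6b readings were under 50 units, so no fold is given.

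The other 3 dim members showed no readable signal on any array. Ms4a4c read 12.4 and 11.9 units in sensitive and -4.67 in resistant cells. Ms4a1, the B cell gene of CD20, read 4.97, 5.28 and 7.78 units, with the resistant reading the highest. Ms4a2, the IgE receptor beta chain, read 16.2 and 13.2 units in sensitive and 17.1 in resistant cells. The annotation lists Ms4a1 and Ms4a2 as older names of each other, so these names could be exchanged on the array; both probes were dim on all arrays, so the reading of neither gene depends on it. The sign of these differences has no weight at such levels.

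**Figure D2:**
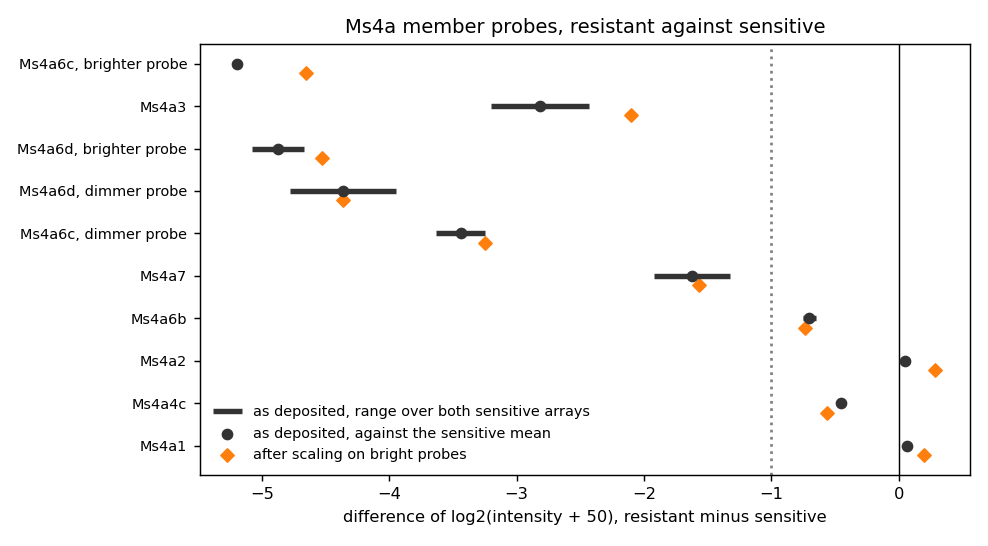
Differences of log2(intensity + 50), resistant minus sensitive, for the 10 member probes: bars span the differences from each sensitive array as deposited, dots give the difference from their mean, diamonds the same after scaling on bright probes, and the dotted line marks -1. The brighter probes of Ms4a6c and Ms4a6d lie at -5.20 and -4.88, Ms4a3 at -2.81 and Ms4a7 at -1.63, and scaling moves Ms4a3 to -2.10.

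The sensitive arrays differed from each other in several members, a measure that the choice of members did not use. Of the 5 member probes that reached 500 units on each sensitive array, 5 read higher on replicate 2. They belong to 3 genes and so are not separate readings, and the brighter Ms4a6c probe was higher by only 0.03. Over the 5181 genes as bright, 58.52% read higher there, with a median of 0.05. The Ms4a3 reading was higher on replicate 2 by 0.77 on the log2 scale, and 1.76% of those genes differed as much in either direction. For the dimmer Ms4a6d probe the difference was 0.83, which 1.35% of those genes reached. Ms4a7 differed by 0.60 and the brighter Ms4a6d probe by 0.40.

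The stretches before the starts of Ms4a6c, Ms4a6b and Ms4a7 are shown because Ms4a6c and Ms4a6b are near relatives whose stretches can be aligned, and because these 3 members share a sequence pattern. Each is the 250 bases before the start in RefSeq, build GRCm38.p6, read 5' to 3' on the gene's strand; Ms4a6c lies at chr19:11469118-11469367 on the plus strand, Ms4a6b at chr19:11518309-11518558 on the plus strand and the first start of Ms4a7 at chr19:11336147-11336396 on the minus strand. Capitals mark the match to GAAANNGAA (N is any base), most of the element through which interferon acts on its target genes, on either strand.
Ms4a6c: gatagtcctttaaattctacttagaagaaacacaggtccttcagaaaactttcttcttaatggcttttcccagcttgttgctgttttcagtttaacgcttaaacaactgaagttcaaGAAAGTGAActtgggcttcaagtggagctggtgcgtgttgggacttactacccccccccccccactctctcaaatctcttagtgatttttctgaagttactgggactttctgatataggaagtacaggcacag
Ms4a6b: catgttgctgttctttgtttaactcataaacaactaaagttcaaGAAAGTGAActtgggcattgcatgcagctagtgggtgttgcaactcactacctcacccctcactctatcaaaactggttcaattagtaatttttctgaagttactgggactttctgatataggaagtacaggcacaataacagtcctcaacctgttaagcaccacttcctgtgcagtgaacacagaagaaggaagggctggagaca
Ms4a7: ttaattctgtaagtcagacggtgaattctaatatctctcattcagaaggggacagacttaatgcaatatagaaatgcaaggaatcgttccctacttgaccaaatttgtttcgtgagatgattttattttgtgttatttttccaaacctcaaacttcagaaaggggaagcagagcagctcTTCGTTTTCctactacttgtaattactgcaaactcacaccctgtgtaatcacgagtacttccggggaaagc

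Promoter entries existed for 7 of the 9 members, all but Ms4a1 and Ms4a6d, with 8 starts in all. GAAANNGAA was found on either strand before 4 of these starts, those of Ms4a6b and Ms4a6c and both of Ms4a7, and in 7.13% of all 32851 entries of the same length. In Ms4a6c the match was GAAAGTGAA, from 133 to 125 bases before the start, and in Ms4a6b the same letters stood from 206 to 198 bases before it. These matches are not independent: the best local alignment of both stretches had 182 columns, of which 83.5% were identical, it paired all 9 bases of the matches, and it held an identical run of 48 bases. In Ms4a7 the match, on the other strand as TTCGTTTTC, ran from 71 to 63 bases before the first start. The PU.1 core GAGGAA, bound by the myeloid factor encoded by Spi1, occurred before Ms4a4b and Ms4a4c, and in 23.3% of all entries. The octamer ATTTGCAT, bound by Oct factors such as the product of Pou2f2, occurred before Ms4a4c and in 1.60% of all entries, and TATAAA before Ms4a4b and in 12.4%. Neither the C/EBP pattern TTGCNNAA nor the E-box CACGTG, present in 9.56% and 6.02% of all entries, was found in these windows, and no searched pattern was found before Ms4a2 or Ms4a3. A match describes the letters in the window and is not a binding site.

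The other Ms4a genes all read below 500 units. The annotation holds 21 Ms4a genes, of which 19 had a probe here. The 11 that are not members read between -4.67 and 281 units, 6 of them below 50 on every array. Of these 11, limma called 2 lower and 0 higher as deposited, where 18.5% of all genes were called lower and 5.23% higher. After scaling it called 0 of the 11 lower, where 8.53% of all genes were called lower. At an unadjusted p under 0.05, with no size asked, limma had 8 of the 11 lower as deposited and 5 after scaling. Ms4a8a read 204 and 281 units in sensitive and 62.2 in resistant cells (a difference of -1.37 with an SE of 0.31; limma adjusted p = 0.00319). Ms4a18 read 140 and 171 against 31.1 (log2 difference -1.34, adjusted p = 0.00258). Both missed the size rule after scaling, at -0.90 and -0.997.

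Of the 25 measured genes next to the members or between them, limma called 5 lower as deposited and 3 after scaling. The 11 other Ms4a genes above are all among the 25, and Ms4a8a and Ms4a18 are among the 5, so these counts are not separate from those above. The shares of all genes called lower were 18.5% and 8.53%, so nothing particular to this region is read from these counts. Of the 25, limma called 0 higher on either scale, and at an unadjusted p under 0.05 had 0 higher as deposited and 2 after scaling. The 5 genes between members, Ms4a5, Ms4a14, Ms4a4a, Gm8369 and Ms4a4d, were all dim and not called, with 3 lower at an unadjusted p under 0.05 as deposited and 2 after scaling. On the side of Ms4a3, the neighbouring oocyte gene Oosp1 fell from 713 and 596 units to 15.6 (log2 difference -3.42, SE 0.28, limma adjusted p = 1.72e-06), and its relative Oosp2 fell from 114 and 102 to 12.4 (log2 difference -1.34, adjusted p = 0.00126). A few genes further, Mrpl16, a mitochondrial ribosomal protein gene, read 6028 and 6670 units in sensitive and 5314 in resistant cells. Patl1 and Osbp, also well detected there, differed by -0.23 and -0.05 and were not called; after scaling all 3 were positive (0.51, 0.52 and 0.71) and not called. On the other side, AW112010 fell from 89.5 and 79.1 units to 3.11 (log2 difference -1.34, adjusted p = 0.000602). Of the 4 neighbours that reached 500 units on any array, Oosp1 thus fell, and Mrpl16, Patl1 and Osbp were not called.

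**Figure D3:**
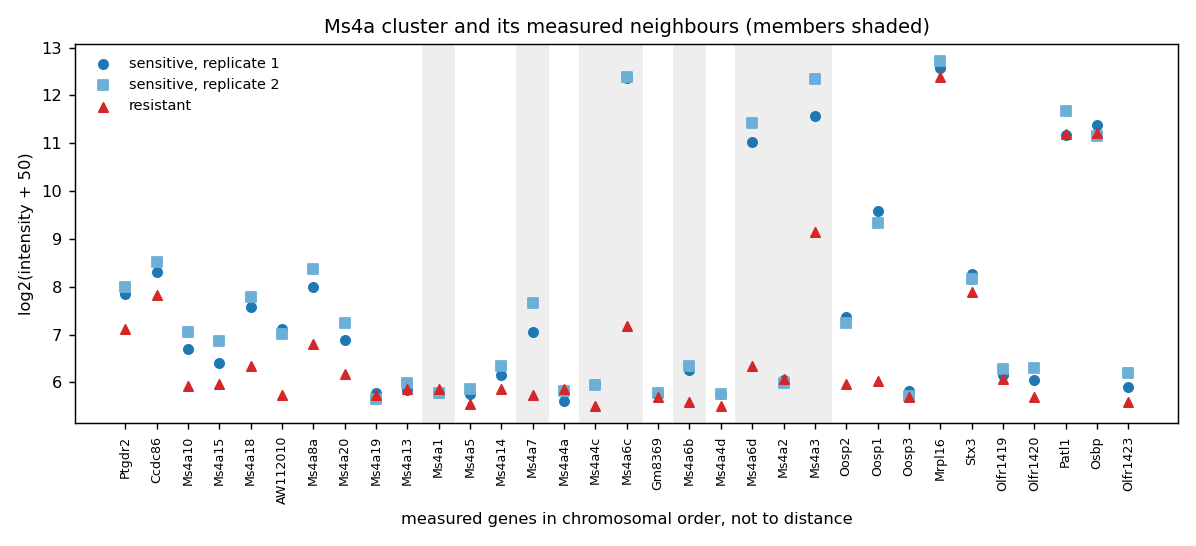
Readings of measured genes of chromosome 19 in chromosomal order (x axis, not to distance) as log2(intensity + 50), 1 point per array; members are shaded. For Ms4a6c, Ms4a6d and Ms4a3 the resistant point lies far below both sensitive points, while the resistant points of Patl1 and Osbp lie between the sensitive points and that of Mrpl16 slightly below them.

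Genes with the most similar readings to the 3 bright members were sought by the distance of log2(intensity + 50) over the 3 arrays, which compares level and difference together. Nearest to Ms4a6c was Psmb9, an immunoproteasome subunit gene, with 5074, 4978 and 84.0 units at a distance of 0.15, followed by Parp8, the necroptosis kinase gene Ripk3, the glutamate receptor gene Gria3 and Hk3, a hexokinase gene of myeloid cells. Nearest to Ms4a6d was Itgax, which encodes the integrin CD11c of dendritic cells and macrophages, with 2033, 2387 and 38.9 units at a distance of 0.21. Next came Csf1r, the macrophage growth factor receptor gene, with 2413, 3009 and 28 units at a distance of 0.30, then Vmp1, Scin and H1f1. Nearest to Ms4a3 were Arhgef1 (3574, 4977 and 515 units, distance 0.26), Emp1, Acin1, Morc2a and Milr1. The measure sets readings of different probes beside each other, which are not RNA levels on a common scale, and it says nothing of shared function.

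The relatives and partners of the family were counted from lists, with limma calls at a Benjamini-Hochberg adjusted p under 0.05 and the size rule; as deposited these calls were the same genes that met the size rule alone. Below, "fell" and "rose" are used where the call held as deposited and after scaling. Over all genes, 18.5% were called lower and 5.23% higher as deposited, and 8.53% lower and 9.83% higher after scaling. Tmem176a and Tmem176b, related membrane protein genes of dendritic cells and macrophages outside the cluster, both fell. Tmem176b read 20326 and 21873 units in sensitive and 2400 in resistant cells (a difference of -3.11 with an SE of 0.20; limma adjusted p = 2.34e-07), and Tmem176a fell by 3.65 on the log2 scale, from 2587 and 2187 units to 143. Their second probes were dim, at most 121 units. In the list of other Ms4a genes and relatives, 11 of 12 genes were measured, with a median of -0.67. In it 4 were called lower when left unscaled, Ms4a8a and Ms4a18 again among them, and 2 under both treatments.

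The partners of Ms4a2 in the IgE receptor split. Fcer1a, the IgE-binding chain, read between -1.24 and 2.64 units and thus showed no signal, like Ms4a2 itself. Fcer1g, the gamma chain shared with IgG receptors, read 9537 and 10435 units in sensitive and 9739 in resistant cells, and was not called. Downstream, the adaptor genes Lat2 and Gab2 fell. Lat2 read 6740, 8653 and 1075 units (log2 difference -2.77), and Gab2 read 292, 352 and -9.33 units (-3.19). The phospholipase gene Plcg2 (-1.87) and the phosphatase gene Inpp5d (-1.76) were called lower as deposited only. Of 9 measured genes in this list, 4 met the call without scaling and 2 with and without it, all lower, with a median of -0.30 beside -0.33 for all genes. The share of all genes called lower was 18.5% without scaling and 8.53% with it.

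Among the cell cycle partners of Ms4a3, the phosphatase gene Cdkn3, whose product binds Ms4a3, read 471 and 521 units in sensitive and 138 in resistant cells (log2 difference -1.53, limma adjusted p = 0.000526) and was called lower as deposited only, with -0.94 after scaling. Cdk2 itself read 1163, 1523 and 1122 units and was not called. The inhibitor gene Cdkn1b fell by 1.73. Cdkn1a, the inhibitor p21, was called higher after scaling only (2.06, and 1.31 as deposited). Of 8 genes, limma called 2 lower without scaling, 1 of which kept the call with it, with a median of -0.57 as deposited and 0.11 after scaling. Among all genes, limma called 18.5% lower without scaling and 8.53% with it.

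The markers of the lineages that the members stand for differed by lineage. Beside the counts stand the shares of all genes: 18.5% called lower and 5.23% higher as deposited, and 8.53% and 9.83% after scaling. Among genes of at least 500 units on each sensitive array, 38.8% were lower as deposited. Of 17 measured monocyte and macrophage markers, 9 fell and 1 rose, and a further pair was lower only without scaling, for 11 in that direction as deposited; the median was -2.005 as deposited and -1.28 after scaling. Mpeg1, the macrophage perforin gene, fell by 5.76, Csf1r fell by 5.14, and the chemokine receptor genes Cx3cr1 and Ccr2 differed by -4.89 and -4.05, while Fcgr1, a high-affinity IgG receptor gene, rose by 1.83, from 37.3 and 109 units to 370. The summed intensity of the list was 24341 and 25759 units in sensitive and 2755 in resistant cells. None of the 17 was at or below 10 units on both sensitive arrays, and 2 were on the resistant array. The 9 that fell did so in the array where Ms4a6c, Ms4a6d and Ms4a7 read lower, and their part in the members' difference was not tested. Among the uncalled markers, C1qb, a complement gene of tissue macrophages, read at most 12.4 units on any array, and Apoe differed by -1.03.

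The progenitor markers that accompany Ms4a3 went both ways. For comparison, 18.5% of all genes were called lower and 5.23% higher as deposited, and 8.53% lower and 9.83% higher after scaling. Of 10 measured granulocyte-monocyte progenitor markers, 2 fell and 3 rose on both scales, with a median of 0.43 as deposited and 1.01 after scaling. Elane, the neutrophil elastase gene, rose from 272 and 350 units to 11153 (log2 difference 4.96, SE 0.23, limma adjusted p = 2.13e-08), and the granule protease gene Ctsg and the factor gene Gfi1 also rose (1.14 and 1.56). Irf8, which encodes a factor of monocyte fate, fell by 5.10, and Cd34, a stem and progenitor marker, fell by 2.39. Csf3r, the granulocyte growth factor receptor gene, was called lower as deposited only (-1.78). Its difference after scaling was -1.30, which met the size rule but not the limit on adjusted p. Mpo read 76710 and 84138 units in sensitive and 80905 in resistant cells and was not called. The summed intensity of the list was 123477 and 130988 units in sensitive cells and 144823 in resistant cells as deposited, most of it from Mpo on each array.

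For the B cell lineage marked by Ms4a1, 3 of 9 measured markers fell and 1 rose on both scales, with a median of -0.88 as deposited and -0.43 after scaling. Limma called 18.5% of all genes lower and 5.23% higher as deposited, and 8.53% and 9.83% after scaling. The 3 that fell read at least 500 units on each sensitive array, and 38.8% of genes as bright were lower as deposited. Blnk fell from 630 and 629 units to -6.22. Cd79b, a chain of the B cell receptor, fell from 970 and 1049 units to 21.8, and Cd22 fell by 2.45. Ebf1, an early B lineage factor gene, rose from 8.70 and 15.8 units to 137. The summed intensity of the list was 3024 and 3152 units in sensitive cells and 474 in resistant cells, while Blk read at most 12.4 units and Pax5 at most 72.5. The part of these markers in the readings of the members was not tested. Of 9 mast cell and basophil markers, limma called 1, Hdc (-1.35), lower as deposited and 0 after scaling; at an unadjusted p under 0.05, 4 were lower as deposited, and 3 lower and 2 higher after scaling. In the same list Mcpt8, a basophil protease gene, read 3848, 3448 and 3926 units and Kit 2728, 2236 and 2447, neither of them called. Summed, this list read 6360 to 7221 units in sensitive cells and 6631 in resistant cells as deposited, most of it from Mcpt8 and Kit. Of 9 T cell markers, limma called 0 on either scale, with 4 lower at an unadjusted p under 0.05 as deposited and 3 after scaling. Cd3d and Cd247 were below 10 units on all arrays, and the sum was 615 and 649 units in sensitive cells and 274 in resistant cells.

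The factors known to act on the Cd20 promoter or on myeloid genes of the family were lower more often than higher. As deposited, so were the genes of the whole array, with 18.5% called lower and 5.23% higher. With scaling, limma called 8.53% of all genes lower and 9.83% higher. Of 11 measured genes, 5 fell; as deposited limma had 6 lower and 1 higher and after scaling 5 lower and 2 higher, with a median of -1.11 as deposited and -1.05 after scaling. Pou2f2, which encodes the lymphoid octamer-binding factor Oct-2, fell from 3999 and 3323 units to 17.1 (log2 difference -5.78, SE 0.23, limma adjusted p = 9.39e-09). Spi1, which encodes the myeloid and B cell factor PU.1, fell from 634 and 591 units to 109. Pou2f1, which encodes Oct-1, fell by 1.73, and Foxo1 fell by 1.56. Cebpb was called higher as deposited only (1.73). Its difference after scaling was 2.47, which met the size rule but not the limit on adjusted p. Cebpa (0.98 as deposited and 1.71 scaled) and Pou2af1 (0.69 and 1.33) were called higher after scaling only. Tcf3 differed by -0.58 and was not called. Spi1 also stands in the monocyte and macrophage list, Irf8 and Cebpa in the progenitor list, and Fcer1a in both the IgE receptor and the mast cell list, so these counts are not separate. Whether these factors act on the members in these cells was not tested.

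**Figure D4:**
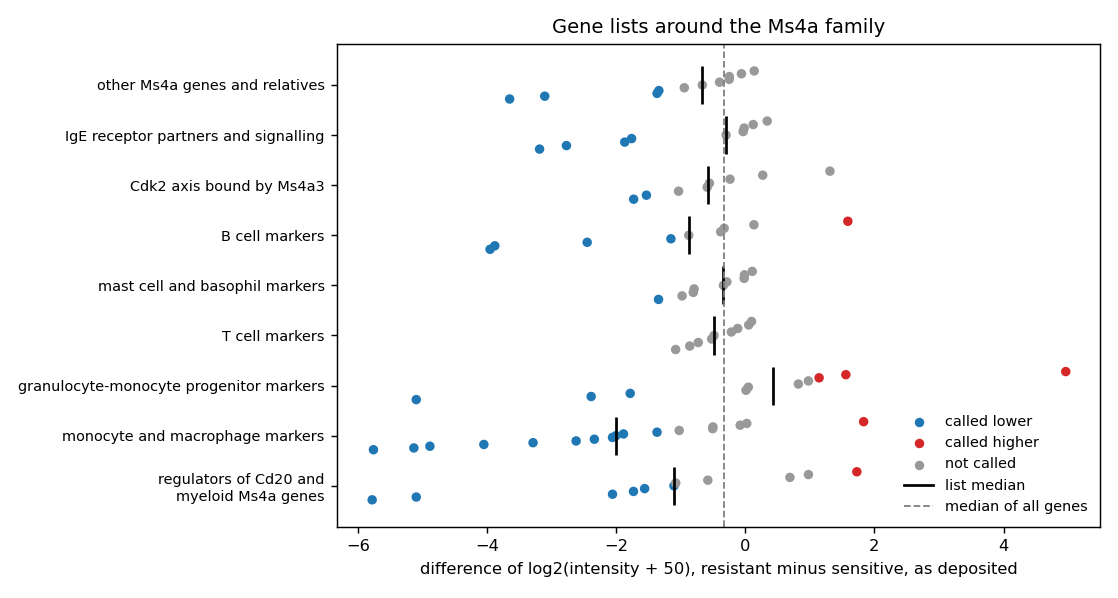
Differences of log2(intensity + 50), resistant minus sensitive, as deposited, for each measured gene of 9 lists; blue points were called lower and red points higher by limma, grey points were not called, black bars are list medians and the dashed line is the median of all genes (-0.33). The monocyte and macrophage list has its median at -2.005 and the granulocyte-monocyte progenitor list at 0.43, with Elane at 4.96.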

How the data were processed

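Per the labels' protocols, amplified amino-allyl antisense RNA was labelled with Cy5 before hybridisation to 1-colour arrays. The authors deposited 1 table of linear intensity values per probe and array; values below 0 show that a background was subtracted. The sources used here do not name the scanner, software or normalization. Of 26423 probes, 20377 had 1 platform gene symbol, of which 18213 matched a current RefSeq name (GRCm38.p6), 2126 an older one and 38 none. The brightest probe stood for each of 17742 genes, and every member probe is reported. On log2(intensity + 50), limma 3.58.1 (R 4.3.3, lmFit, eBayes with trend) was fitted to 3 arrays with 1 residual degree of freedom. The prior was 11.0 for values as deposited, and that of the scaled fit is not given here. The scaled fit could give a larger adjusted p at a like difference, as for Blnk (-3.96 as deposited and -4.11 scaled). A call lost after scaling is thus not by itself a lost difference. The spread comes from the sensitive pair and is assumed for the resistant array too. Adjusted p-values are Benjamini-Hochberg over all genes. Members and lists were chosen with earlier results of these data known. Named genes were the members, up to 4 called genes by size and 2 uncalled genes of each list, the 5 nearest genes to each bright member, and called neighbours. Fcgr1, Ctsg, Gfi1, Foxo1, Cebpb, Pou2af1, Mrpl16, Patl1, Osbp and the dim genes between members were added after their values were seen. To gauge recovery, 20 data sets of 17742 genes, 200 of them altered, were simulated from these arrays. Limma recovered 99.85% of altered genes at a log2 size of 2 and 91.45% at 1.5. A mean of 2.85 unaltered genes was called per data set. These rates rest on the spread assumed above. Whether they hold for dim genes or with the dimming of the resistant array was not tested. No protein sequence was used. Alternatives were other normalizations, offsets, filters, probe rules, the variance model and leaving out each sensitive array. Promoters were aligned with Biopython 1.88.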

Additional observations from a re-analysis of the deposited data

How the results depend on the processing

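The count of 4 lower member genes was 3 after centring on array medians, with an offset of 100 and with a floor of 50. Each time the gene lost was Ms4a7. The count was 6 with an offset of 16, which added Ms4a4c and Ms4a6b. It was 4 in the other 8 alternatives, and 0 members were higher in any. Among these 8, the variance model and the filter on dim genes leave each difference as it is. Leaving out 1 sensitive array can only keep or raise the count, so no support is drawn from these. Over all alternatives the log2 difference ranged from -5.80 to -4.32 for Ms4a6c, -5.64 to -4.21 for Ms4a6d, -3.20 to -2.10 for Ms4a3 and -2.75 to -1.004 for Ms4a7. Of 94 member values, 46 moved by more than the SD of the sensitive arrays. Many of the rest could not: the variance model and the dim-gene filter do not change a difference. Averaging probes changes only Ms4a6c and Ms4a6d, and leaving out 1 sensitive array always shifts a difference by less than that SD. None of the 4 genes lower by the size rule changed sign; Ms4a4c, below 50 units on all arrays, did so with centring (-0.46 to 0.17), and the floor of 50 leaves Ms4a1, Ms4a2, Ms4a4c and Ms4a6b with no difference. Genes called lower over the whole array numbered 3284 as deposited, 1219 after quantile normalization, 1854 after scaling on 4341 probes bright on all arrays, 1513 after scaling on probes bright on average (chosen after seeing the data), 1273 after centring and 26 with the floor of 50. Genes called higher numbered 928, and 1487, 1744, 1697 and 133 under both scalings, centring and the floor; the cause of the floor's low counts was not tested. Of 216 list counts, 43 moved by more than 1.5 times. The monocyte and macrophage list had 11 genes called lower as deposited, 7 after quantile normalization and 1 with the floor. No paired analysis was possible because the resistant group has 1 array. With 1 sensitive array left out, differences have sizes but no test. Readings below 50 units on all arrays limit Ms4a1, Ms4a2, Ms4a4c and Ms4a6b.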
